A study of Mus musculus with 7 samples.

Results

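Cell cycle and DNA replication genes were followed across 7 Affymetrix mouse arrays of the early kidney and of a collecting duct cell line. The genes were chosen by name: 43 were listed, and 42 of them are measured out of 18193 genes on the array, because no probe set in the annotation table used here lists Ccnb1 on its own. A probe set is a group of short oligonucleotides that together report 1 transcript, and the 42 genes carry 100 probe sets out of 45101. They were split by main role into 12 genes of the G1/S transition, 14 of DNA replication and 16 of mitosis. The tissue arrays hold microdissected metanephric mesenchyme (2 arrays), ureteric bud stalk (2 arrays) and ureteric bud tip (2 arrays) of mouse embryos at E12.5, and the labels call each pair biological replicates. The remaining array holds mIMCD-3, an inner medullary collecting duct line, of which a freshly isolated subclone was grown to confluency in DMEM. No genetic change or treatment is given for any group, and the labels do not state strain or whether embryos were pooled. The mIMCD-3 sample has 1 array and was hybridised later than the tissues, so its differences carry no test and line and batch cannot be told apart.

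Cells enter a round of division through D-type cyclins, which pair with Cdk4 and Cdk6 and inactivate the Rb protein, and through E-type cyclins, which pair with Cdk2; E2F factors then drive the genes of DNA synthesis. Origins are licensed when Cdc6 and Cdt1 load the Mcm2 to Mcm7 helicase, geminin (Gmnn) blocks a repeat of that step, and Cdk1 with cyclin B carries the cell into mitosis, where Mad2l1, Bub1 and Bub1b hold back anaphase until the chromosomes are attached. In the developing kidney the ureteric bud grows and branches from its tips while the mesenchyme around it supplies nephron progenitors and stroma.

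Promoter sequences were taken from the RefSeq table of assembly GRCm38.p6, which gives windows of 300 bases, 250 before and 50 after a transcription start. Of the 42 measured members 35 had a window, and 4 of these had several. E2F-type motifs (TTTCCCGC, TTTGGCGC, TTTCGCGC, TTTGGCGG and TTCCCGCC, which can overlap each other) were searched on both strands. The replication genes held a match in 7 of 12 promoters (58.3%), the mitosis genes in 1 of 14 (7.1%) and the G1/S genes in 1 of 9 (11.1%), against 6.7% of the 14452 measured genes with a window and 4.5% of all genes of the table. The following 180-base stretches before the start are examples from genes with an E2F-type match inside them, and others, such as Cdc6, are not shown. Capitals mark that motif alone, on either strand, and all are written 5′ to 3′ on the strand of the gene. They lie at chr8:75109329-75109508 (Mcm5, plus strand), chr1:128359706-128359885 (Mcm6, minus strand), chr5:138171884-138172063 (Mcm7, minus strand) and chr7:102441515-102441694 (Rrm1, plus strand).
Mcm5: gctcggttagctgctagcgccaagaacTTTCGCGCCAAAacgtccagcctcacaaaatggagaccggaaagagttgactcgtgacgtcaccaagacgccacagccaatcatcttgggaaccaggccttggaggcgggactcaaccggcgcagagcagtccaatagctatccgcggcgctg
Mcm6: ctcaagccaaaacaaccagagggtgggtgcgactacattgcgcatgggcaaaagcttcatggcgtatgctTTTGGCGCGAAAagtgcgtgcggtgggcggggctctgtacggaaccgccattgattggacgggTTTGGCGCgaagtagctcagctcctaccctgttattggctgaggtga
Mcm7: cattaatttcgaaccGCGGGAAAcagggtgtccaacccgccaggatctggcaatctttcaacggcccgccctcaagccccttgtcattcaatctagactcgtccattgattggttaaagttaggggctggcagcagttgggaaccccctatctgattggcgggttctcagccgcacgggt
Rrm1: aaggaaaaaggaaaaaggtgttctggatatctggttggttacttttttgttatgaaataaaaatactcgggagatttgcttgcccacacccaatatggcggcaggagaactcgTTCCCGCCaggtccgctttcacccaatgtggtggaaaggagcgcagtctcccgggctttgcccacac

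The mitosis genes held other letters. The cell cycle genes homology region (CHR, TTTGAA) occurred in 10 of 14 mitosis promoters (71.4%), in 2 of 12 replication promoters (16.7%) and in 0 of 9 G1/S promoters, against 15.7% of measured genes and 20.2% of the table. The NF-Y box (CCAAT) occurred in 12 of 14 mitosis promoters (85.7%), 9 of 12 replication promoters (75%) and 4 of 9 G1/S promoters (44.4%), against 42.0% of measured genes and 41.1% of the table. Both were searched on both strands, and no test was made of these shares. The next stretches are examples from genes with both motifs inside them, and others, such as Kif11, are not shown. Capitals mark CHR and CCAAT on either strand. The E2F-type match of Cdk1 is left in lower case. They lie at chr10:69352913-69353092 (Cdk1), chr9:70421555-70421734 (Ccnb2), chr4:118437344-118437523 (Cdc20) and chr11:99024190-99024369 (Top2a), all on the minus strand.
Cdk1: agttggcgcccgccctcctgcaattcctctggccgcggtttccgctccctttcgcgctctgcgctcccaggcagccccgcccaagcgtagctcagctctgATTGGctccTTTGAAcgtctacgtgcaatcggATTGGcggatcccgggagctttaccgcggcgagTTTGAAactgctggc
Ccnb2: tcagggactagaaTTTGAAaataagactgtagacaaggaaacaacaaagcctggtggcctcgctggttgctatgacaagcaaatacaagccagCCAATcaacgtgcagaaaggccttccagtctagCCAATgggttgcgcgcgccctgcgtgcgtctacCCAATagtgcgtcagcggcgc
Cdc20: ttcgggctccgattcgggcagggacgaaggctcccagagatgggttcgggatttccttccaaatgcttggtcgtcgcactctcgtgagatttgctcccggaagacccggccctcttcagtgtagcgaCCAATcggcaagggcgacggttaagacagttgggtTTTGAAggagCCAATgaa
Top2a: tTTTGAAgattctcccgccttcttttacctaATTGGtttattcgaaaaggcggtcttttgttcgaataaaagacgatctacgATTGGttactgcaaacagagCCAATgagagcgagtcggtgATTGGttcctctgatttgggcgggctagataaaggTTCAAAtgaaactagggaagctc

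**Figure D1:**
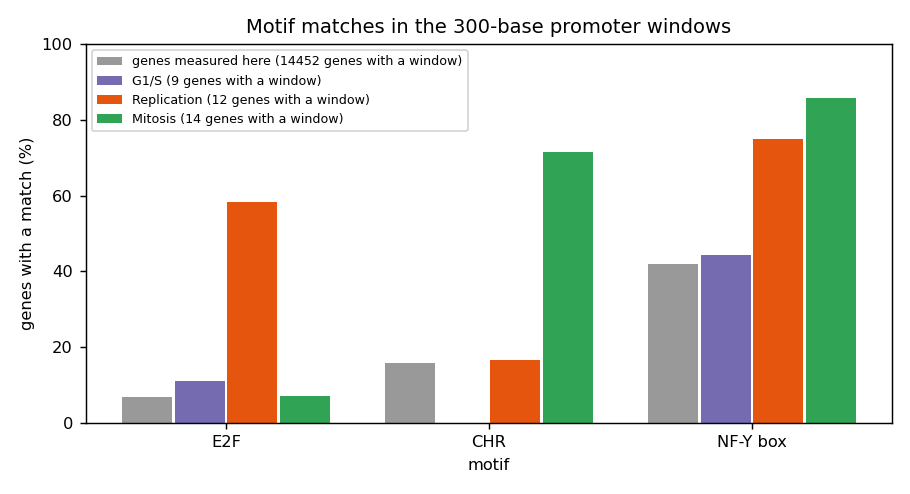
Share (%) of genes with at least 1 match to the E2F, CHR or NF-Y motif in their 300-base RefSeq promoter window, for the G1/S (9), replication (12) and mitosis (14) members with a window and for the measured genes. E2F-type matches are most frequent in the replication genes (58.3%) and CHR matches in the mitosis genes (71.4%).

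Genes of the cell cycle outside the list were searched for the same motifs. E2F-type matches occurred in 16 of 30 other replication genes (53.3%), a list of origin, polymerase and clamp loader genes, and CHR matches in 24 of 39 other mitosis genes (61.5%). The other G1/S regulators differed from the G1/S members, with E2F-type matches in 8 of 18 (44.4%) and CHR matches in 8 of 18 (44.4%). A match says only that the letters are in the window.

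Values were deposited as intensities after robust multichip analysis (RMA), which corrects background, equalises the arrays and summarises each probe set; they are given here as log2, so that 1 unit is a 2-fold difference. Where a gene had several probe sets the brightest over the 7 arrays was used. Levels of different genes are not comparable with each other. Tissues were compared in 1 limma fit of the 6 tissue arrays. A gene is said to have risen or fallen where its Benjamini-Hochberg adjusted p over all genes was under 0.05, and the number after ± beside a difference is its standard error. Each p rests on the spread within pairs of arrays, and the comparisons share arrays: tip and stalk were both set against the same mesenchyme arrays.

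The array medians were between 5.51 and 5.62 in the tissues and 5.40 in mIMCD-3. The labelled tissues carried their markers: the summed intensity of 8 bud epithelium markers was 481.5 and 429.2 in mesenchyme, 16411 and 16230 in stalk, 31349 and 28954 in tip and 12966 in mIMCD-3. The summed intensity of 7 stroma markers was 11826 and 11151 in mesenchyme, 12729 and 12035 in stalk, 1438 and 1092 in tip and 913.2 in mIMCD-3. By this sum the stalk arrays held as much stroma signal as the mesenchyme arrays, but single markers moved in opposite directions. In stalk against mesenchyme Foxd1 fell by 1.18 (limma adjusted p = 0.00722) and Tbx18 rose by 1.41 (adjusted p = 0.0306). The other 5 stroma markers were not called. Summed intensities of 7 nephron progenitor markers were 7584 and 6988 in mesenchyme, 1914 and 1838 in stalk and 941.8 and 772.8 in tip. In such bulk samples fewer cells of a type and less RNA per cell cannot be told apart. Replicate 1 was brighter than replicate 2 in the tip for 90.1% of the 3421 genes with a mean log2 above 9, a level chosen after the values were seen, with a median difference of 0.17. The same held for 76.5% of these genes in mesenchyme and 73.3% in stalk, with median differences of 0.07 and 0.04.

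**Figure D2:**
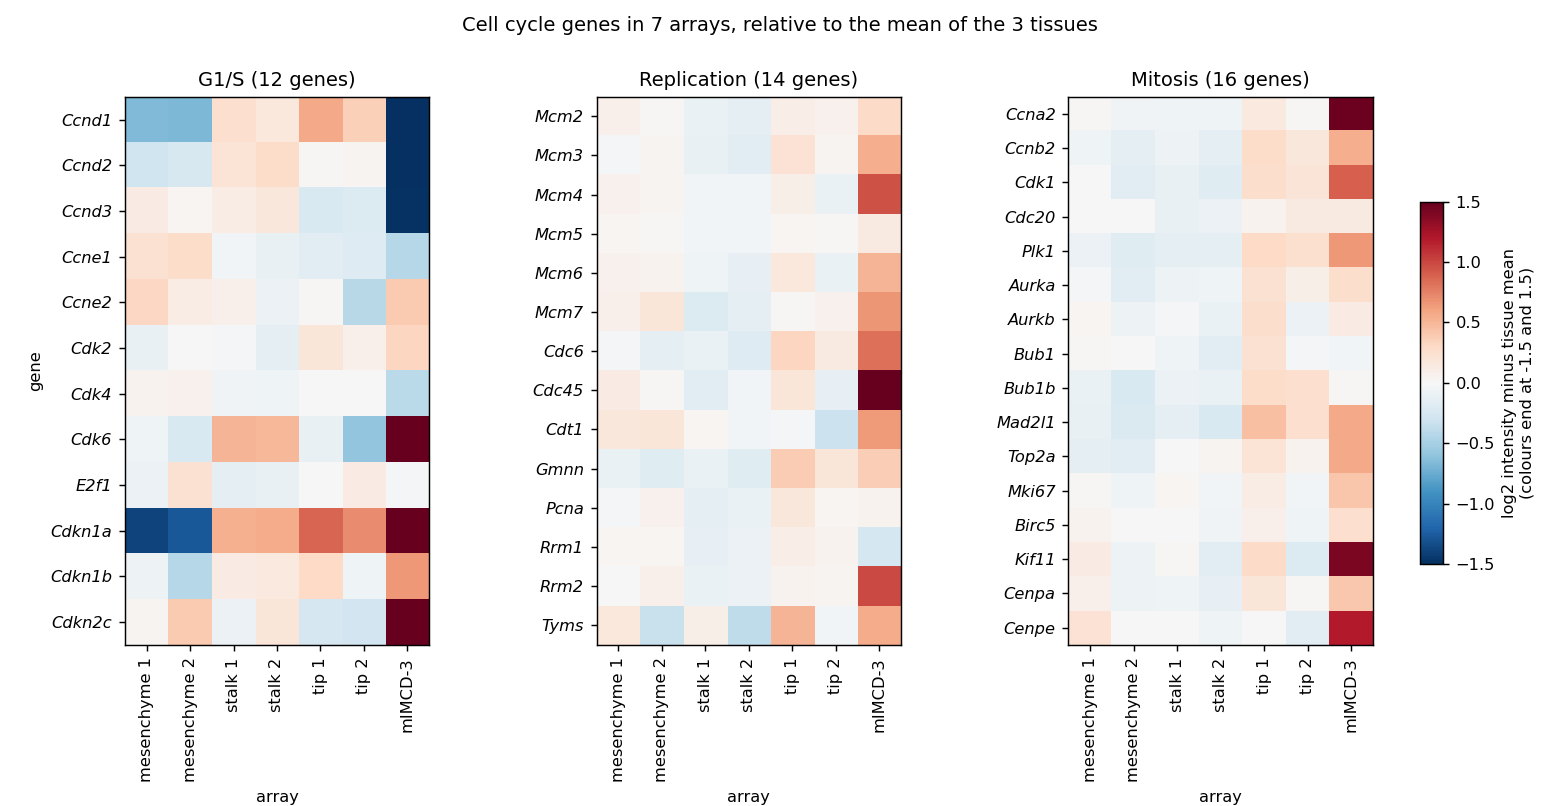
Heat map of the 42 measured members by array, grouped into G1/S, replication and mitosis; colour gives each gene's log2 value minus its mean over the 6 tissue arrays, with the scale ending at -1.5 and 1.5. The G1/S genes show contrasts between tissues, whereas most replication and mitosis genes differ little between the tissue arrays and are higher in mIMCD-3.

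The tissue differences were largest among the G1/S genes. The gap between the highest and lowest of the 3 tissue means ran from 0.12 (Cdk4) to 2.12 (Cdkn1a) among G1/S genes, from 0.07 (Mcm5) to 0.43 (Gmnn) among replication genes and from 0.04 (Birc5) to 0.54 (Mad2l1) among mitosis genes. Mki67, the gene of the proliferation antigen Ki-67, had a gap of 0.06. It measured 10.86 and 10.77 in mesenchyme, 10.87 and 10.80 in stalk, 10.96 and 10.80 in tip and 11.26 in mIMCD-3, so the tissues overlapped.

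Ccnd1, Ccnd2 and Cdkn1a were higher in the bud than in the mesenchyme. With tip and stalk averaged as bud and set against mesenchyme, 3 of 42 members rose and 0 fell, against 6.13% and 4.96% of all genes. Unadjusted limma p-values under 0.05 numbered 5 higher and 1 lower. Stalk against mesenchyme gave 2 members higher and 0 lower, against 4.3% and 1.24% of all genes, with 4 and 2 at an unadjusted p under 0.05. Tip against mesenchyme gave 3 higher and 0 lower, against 7.38% and 8.37% of all genes, with 10 and 5 at an unadjusted p under 0.05. The shares of all genes are at the adjusted threshold. None is given here for an unadjusted p under 0.05, so the unadjusted counts cannot be read as an excess. The shares of members that rose are near those of all genes. In each comparison 0 members fell, where 1.24% to 8.37% of all genes did. Cell type markers moved as well. In bud against mesenchyme all 8 bud epithelium markers rose, and all 7 nephron progenitor and all 7 stroma markers fell. Against mesenchyme all 7 stroma markers fell in tip, whereas in stalk 1 rose, 1 fell and 5 were not called. The part of these cell type markers in the members' differences was not tested.

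Same-numbered replicates deviated together in all 3 pairs of tissues, and limma called more members once replicate number entered as a block. Whether this comes from paired samples or from the greater brightness of replicate 1 given above was not tested. With that block bud against mesenchyme gave 4 higher and 1 lower (all genes 9.1% and 8.53%), and stalk against mesenchyme gave 4 and 0 (6.77% and 3.17%). Tip against mesenchyme gave 7 and 3 (11.2% and 12.8%). Values from this fit are named below as those with the replicate block.

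Cdkn1a, which encodes the cyclin-dependent kinase inhibitor p21, had the largest difference of any member between tissues. It measured 6.70 and 6.82 in mesenchyme, 8.62 and 8.65 in stalk, 8.97 and 8.80 in tip and 10.27 in mIMCD-3. All 4 bud arrays lay above both mesenchyme arrays, and mIMCD-3 lay above all 6. Stalk exceeded mesenchyme 3.67-fold (1.88 ± 0.13 on the log2 scale, limma adjusted p = 0.000163) and tip exceeded it 4.36-fold (2.12 ± 0.13, adjusted p = 2.59e-05). Tip and stalk differed by 0.25 ± 0.13 (adjusted p = 0.327). A second probe set of Cdkn1a gave smaller differences of the same sign, 0.58 for stalk and 0.65 for tip.

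Ccnd1, the cyclin D1 gene, measured 10.22 and 10.21 in mesenchyme, 11.14 and 11.04 in stalk, 11.46 and 11.25 in tip and 8.10 in mIMCD-3. The bud arrays were all above the mesenchyme arrays, whereas mIMCD-3 was below every tissue array. Ccnd1 rose 1.83-fold in stalk (0.87 ± 0.13, limma adjusted p = 0.00771) and 2.20-fold in tip (1.14 ± 0.13, adjusted p = 0.000737). The stalk call was lost without mesenchyme replicate 2 (adjusted p = 0.0527), without stalk replicate 1 (0.0994) and without stalk replicate 2 (0.0561). All 3 probe sets of Ccnd1 gave the same signs, with differences from 0.87 to 1.34 in stalk and from 1.14 to 1.77 in tip.

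Ccnd2, the cyclin D2 gene, measured 11.53 and 11.59 in mesenchyme, 12.04 and 12.11 in stalk, 11.86 and 11.87 in tip and 4.86 in mIMCD-3. Stalk was highest among the tissues, tip lay between stalk and mesenchyme without overlap, and mIMCD-3 was far below. The bud mean rose by 0.41 ± 0.10 over mesenchyme (limma adjusted p = 0.0472). The call was lost without mesenchyme replicate 1 (adjusted p = 0.295) or 2 (0.216), without stalk replicate 1 (0.194) or 2 (0.247), with the mean of probe sets (0.0953) and with arrays centred on their medians (0.0958). Stalk alone differed by 0.51 ± 0.12 (adjusted p = 0.055, and 0.0137 with the replicate block), and the sign was the same in all 7 probe sets.

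Ccnd3, the remaining D-type cyclin, measured 10.14 and 10.06 in mesenchyme, 10.13 and 10.19 in stalk, 9.79 and 9.82 in tip and 8.54 in mIMCD-3. Mesenchyme and stalk overlapped, and both tip arrays were lower. Tip minus stalk was -0.35 ± 0.12 (limma adjusted p = 0.135, and 0.0476 with the replicate block). By their means the 3 D-type cyclins had different tissue orders, with Ccnd1 highest in tip, Ccnd2 highest in stalk and Ccnd3 lowest in tip. Without the block only differences of Ccnd1 and Ccnd2 from mesenchyme passed the test. Tip minus stalk did not, at 0.26 ± 0.13 for Ccnd1 (limma adjusted p = 0.309) and -0.21 ± 0.12 for Ccnd2 (adjusted p = 0.358). Dimmer probe sets of Ccnd3 gave -0.13 and 0.09 for tip minus stalk.

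Cdk6, a kinase partner of the D-type cyclins, was higher in stalk than in tip. It measured 7.79 and 7.62 in mesenchyme, 8.36 and 8.34 in stalk, 7.74 and 7.26 in tip and 10.58 in mIMCD-3. Both stalk arrays lay above all tip and mesenchyme arrays, which overlapped each other. From stalk to tip it fell by 0.85 ± 0.18 (limma adjusted p = 0.0218). The call was lost without stalk replicate 1 (adjusted p = 0.116) or 2 (0.102). Stalk minus mesenchyme was 0.65 ± 0.18 (adjusted p = 0.103, and 0.0151 with the replicate block), and all 3 probe sets had stalk above both mesenchyme and tip. The part of the stroma signal, higher in stalk than in tip, in the Cdk6 difference was not tested. Cdk4, the other partner, had tissue means within 0.12 of each other.

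The E-type cyclins, which act later in G1, were lower in the bud by their means. Ccne1 measured 9.30 and 9.34 in mesenchyme, 9.03 and 8.95 in stalk, 8.91 and 8.88 in tip and 8.64 in mIMCD-3. All bud arrays were below the mesenchyme arrays, but tip minus mesenchyme, -0.43 ± 0.12, missed the limma threshold (adjusted p = 0.0531). The threshold was met under the replicate block (0.0172), with the dimmest 40% of genes left out (0.0223) and with limma's trend and robust options (0.0184). Ccne2 measured 8.93 and 8.73 in mesenchyme, 8.70 and 8.53 in stalk, 8.64 and 8.20 in tip and 9.02 in mIMCD-3, with tip minus mesenchyme at -0.41 ± 0.18 (adjusted p = 0.197, and 0.0297 with the replicate block). Bud minus mesenchyme was -0.38 ± 0.10 for Ccne1 (adjusted p = 0.0629, and 0.0197 with the block).

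Among the other inhibitors, Cdkn1b (p27) measured 7.83 and 7.47 in mesenchyme, 8.02 and 8.04 in stalk, 8.20 and 7.84 in tip and 8.55 in mIMCD-3. Bud minus mesenchyme was 0.38 ± 0.15 (limma adjusted p = 0.218, and 0.0486 with the replicate block). Cdkn2c (p18), an inhibitor of Cdk4 and Cdk6, measured 6.18 and 6.53 in mesenchyme, 6.05 and 6.33 in stalk, 5.89 and 5.86 in tip and 11.11 in mIMCD-3. The tip arrays were lowest, with tip minus mesenchyme at -0.48 ± 0.17 (adjusted p = 0.106, and 0.0227 with the replicate block), and mIMCD-3 was far above every tissue. Cdk2 and E2f1, a kinase and a transcription factor of S-phase entry, had tissue means within 0.21 and 0.19 of each other.

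**Figure D3:**
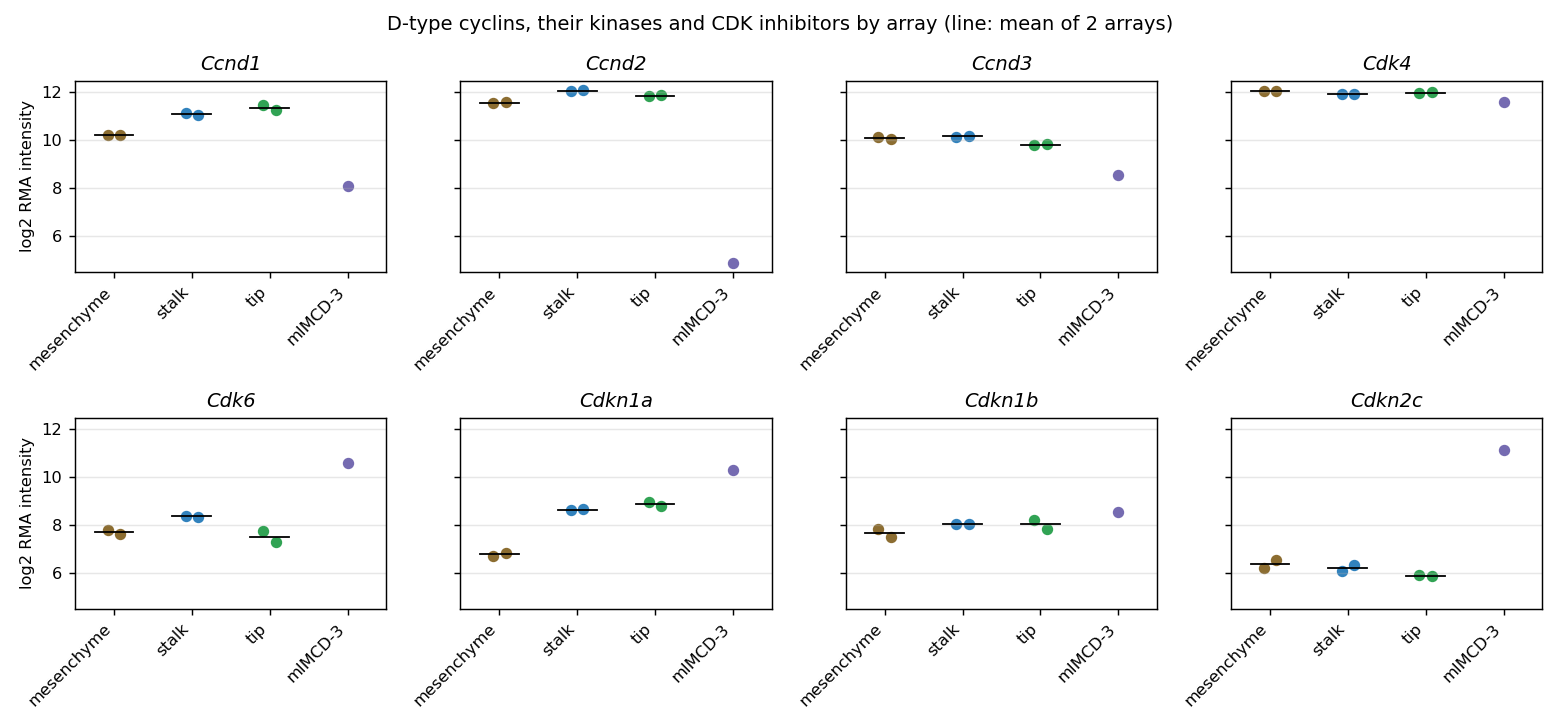
Log2 RMA intensity (y axis) of the 3 D-type cyclins, Cdk4, Cdk6 and 3 inhibitors in mesenchyme, stalk, tip and mIMCD-3; each point is an array and each line the mean of the 2 arrays of a tissue. Cdkn1a and Ccnd1 separate mesenchyme from both bud tissues, Cdk6 is highest in stalk among the tissues, and Ccnd2 drops to 4.86 in mIMCD-3.

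No replication gene rose or fell between tissues in the limma fit without a block. In stalk against mesenchyme all 14 were lower by sign, with a median of -0.14, where 58.2% of all genes were lower and their median was -0.04. In 11 of the 14 both stalk arrays lay below both mesenchyme arrays, as did 25.6% of all genes; the opposite order occurred in 0 of 14, and in 22.3% of all genes. Among the 3421 genes with a mean log2 above 9 these orders occurred in 893 and 1097. At an unadjusted p under 0.05, for which no share of all genes is given, 1 was lower and 0 were higher. With the replicate block 0 were called. The count lower by sign was 11 without mesenchyme replicate 1 and 12 without stalk replicate 2, where 54.2% and 57.0% of all genes were lower. Mcm7, a subunit of the replicative helicase, had the largest such difference; it measured 12.37 and 12.48 in mesenchyme, 12.09 and 12.17 in stalk, 12.32 and 12.36 in tip and 12.96 in mIMCD-3.

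In tip against stalk most replication and mitosis genes were higher in tip by sign. This comparison shares its stalk arrays with that of stalk against mesenchyme, with the opposite sign, so low values on those arrays enter both. In stalk against mesenchyme 11 of 16 mitosis genes were lower by sign, with a median of -0.04. Of all genes 58.2% were lower there, and their median was also -0.04. Of the 30 genes 28 were higher in tip by sign (13 of 14 replication and 15 of 16 mitosis genes), with a median of 0.19, where 59.9% of all genes were higher and their median was 0.07. Among the 3421 brighter genes 50.3% were higher in tip. Both tip arrays lay above both stalk arrays in 9 replication and 11 mitosis genes, 20 of 30 in all, as in 28.2% of all genes; the reverse order occurred in 0 of the 30 and in 22.6% of all genes. Among the 3421 brighter genes these orders occurred in 1089 and 1069. Cdt1, a licensing factor, and Cenpe, a kinetochore motor, were the exceptions by sign. The sign of Cdt1 turned with the probe set: the brightest gave -0.17, and another gave 0.24, with both tip arrays above both stalk arrays.

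Few of these differences were called. In tip against stalk 1 of the 42 members rose and 1 fell, against 2.86% and 6.97% of all genes, and 7 and 2 had an unadjusted p under 0.05. The unadjusted counts again have no share of all genes beside them. With the replicate block 7 rose and 2 fell, against 8.92% and 11.7%. The sign count rested in part on tip replicate 1, the brighter of the tip arrays. Without it 21 of 30 genes were higher in tip, with a median of 0.13, where 56.0% of all genes and 38.2% of the brighter genes were higher. Without tip replicate 2 the count was 29 of 30, where 55.9% of all genes and 63.1% of the brighter genes were higher. Without either stalk array it was 28 of 30. There 57.3% (without stalk replicate 1) and 59.0% (without stalk replicate 2) of all genes were higher, and 53.2% and 46.6% of the brighter genes.

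Markers of other cell types moved with this comparison. All 7 stroma markers were lower in tip than in stalk, with a median of -3.50, and all 7 endothelial markers were lower, with a median of -1.36. The 7 endothelial markers summed to 1588 and 1482 in stalk and 629.0 and 620.7 in tip, and 5 erythroid markers to 4340 and 4341 in stalk and 1634 and 1450 in tip. Of these 5, 3 were lower in tip by sign, and 2, Hba-a1 and Klf1, were higher by 0.18 each. The part of all these cell type markers in the tip and stalk differences was not tested.

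**Figure D4:**
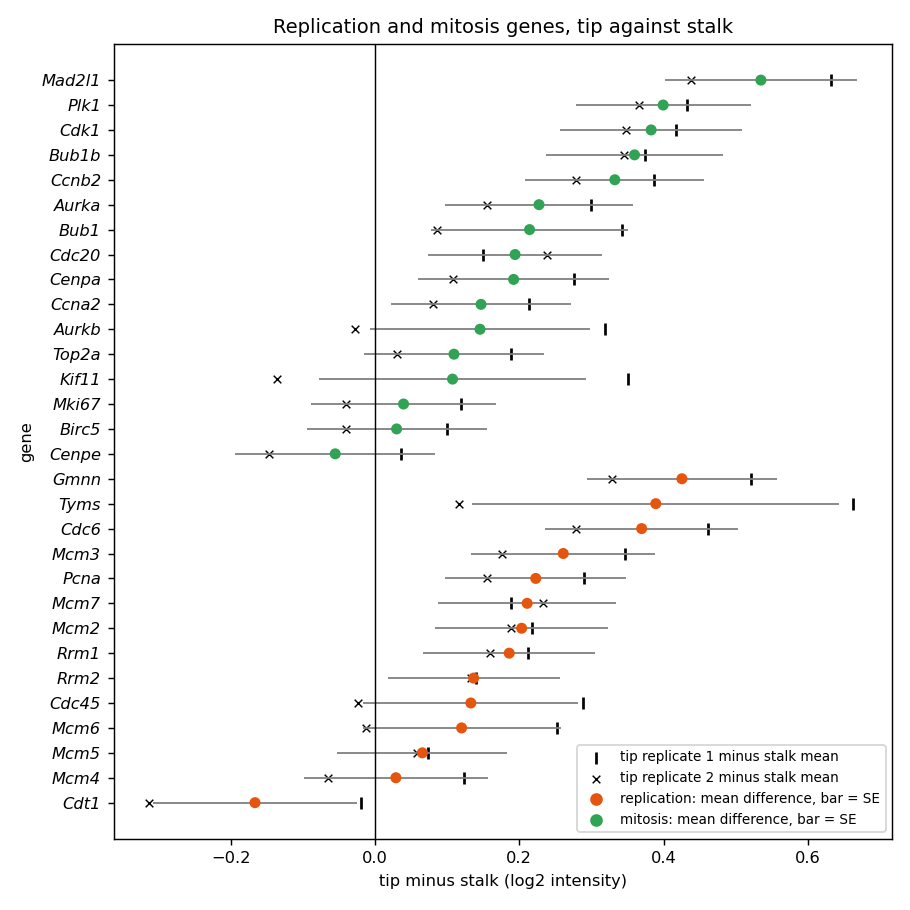
Tip minus stalk (log2) of the 14 replication and 16 mitosis members: coloured points are differences of means with bars of 1 standard error, and black marks are each tip array minus the stalk mean. All but Cdt1 and Cenpe have a mean difference above 0, Mad2l1 has the highest, and tip replicate 1 lies to the right of replicate 2 in 28 of 30 genes.

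Among the licensing genes, Gmnn, the inhibitor of Cdt1, measured 10.04 and 9.95 in mesenchyme, 10.02 and 9.94 in stalk, 10.51 and 10.31 in tip and 10.50 in mIMCD-3. Both tip arrays lay above the other tissue arrays, which overlapped. Tip minus stalk was 0.43 ± 0.13 (limma adjusted p = 0.0974, and 0.0221 with the replicate block) and tip minus mesenchyme was 0.42 ± 0.13 (adjusted p = 0.08, and 0.0195 with the block). Cdc6, which loads the helicase, measured 9.36 and 9.23 in mesenchyme, 9.28 and 9.19 in stalk, 9.70 and 9.51 in tip and 10.21 in mIMCD-3. Its tip arrays were again the highest of the tissues, with tip minus stalk at 0.37 ± 0.13 (adjusted p = 0.153, and 0.0365 with the block). Cdt1 measured 11.23 and 11.24 in mesenchyme, 11.08 and 11.02 in stalk, 11.03 and 10.74 in tip and 11.70 in mIMCD-3, with the tip arrays overlapping stalk; as given above, another of its 3 probe sets had tip above stalk.

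The helicase subunits Mcm2 to Mcm7 differed by at most 0.30 between tissue means, with Mcm7 at that value and Mcm5 at 0.07. Mcm5 measured 11.67 and 11.66 in mesenchyme, 11.60 and 11.60 in stalk, 11.67 and 11.65 in tip and 11.78 in mIMCD-3. Its stalk arrays were the lowest by a small margin. Pcna, the sliding clamp of the polymerases, and Rrm1 and Rrm2, subunits of ribonucleotide reductase, had gaps of 0.22, 0.19 and 0.14. Tyms, thymidylate synthase, was dim: 5.88 and 5.39 in mesenchyme, 5.81 and 5.34 in stalk, 6.24 and 5.69 in tip and 6.28 in mIMCD-3. Its replicates differed by more than its tissues, and tip minus stalk was 0.39 ± 0.25 (limma adjusted p = 0.43, and 0.0298 with the replicate block).

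Mad2l1, the spindle checkpoint gene, was the mitosis gene that rose in tip. It measured 10.70 and 10.59 in mesenchyme, 10.67 and 10.58 in stalk, 11.25 and 11.06 in tip and 11.38 in mIMCD-3. Both tip arrays lay above all mesenchyme and stalk arrays, which overlapped. Tip exceeded stalk 1.45-fold (0.53 ± 0.13, limma adjusted p = 0.0461) and mesenchyme 1.43-fold (0.52 ± 0.13, adjusted p = 0.0372). The call against stalk was lost without either mesenchyme array (adjusted p = 0.0768), without stalk replicate 1 (0.245) or 2 (0.331) and without tip replicate 1 (0.0775), and with arrays centred on their medians (0.0894). The call against mesenchyme was lost without mesenchyme replicate 1 (0.111) or 2 (0.208), without either stalk array (0.101), without tip replicate 1 (0.0827) and with arrays centred on their medians (0.0712).

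Bub1b and Plk1 had the same order of arrays without passing the test. Bub1b, a checkpoint kinase, measured 9.92 and 9.79 in mesenchyme, 9.93 and 9.92 in stalk, 10.30 and 10.27 in tip and 10.03 in mIMCD-3. Tip minus mesenchyme was 0.43 ± 0.12 (limma adjusted p = 0.0563, and 0.0169 with the replicate block) and tip minus stalk was 0.36 ± 0.12 (adjusted p = 0.131, and 0.0425 with the block). Plk1, a kinase of mitotic entry and exit, measured 9.33 and 9.25 in mesenchyme, 9.30 and 9.29 in stalk, 9.73 and 9.66 in tip and 10.08 in mIMCD-3. In both genes the tip arrays lay above the other tissue arrays. The difference of Plk1 was 0.40 ± 0.12 against mesenchyme (adjusted p = 0.0662, and 0.0209 with the block) and 0.40 ± 0.12 against stalk (adjusted p = 0.0923, and 0.027 with the block).

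The mitotic kinase and its cyclin had the same order, with both tip arrays above the other tissue arrays. Cdk1 measured 10.67 and 10.52 in mesenchyme, 10.56 and 10.49 in stalk, 10.94 and 10.87 in tip and 11.57 in mIMCD-3, with tip minus stalk at 0.38 ± 0.13 (limma adjusted p = 0.118, and 0.032 with the replicate block). Ccnb2, cyclin B2, measured 10.08 and 10.00 in mesenchyme, 10.07 and 10.00 in stalk, 10.42 and 10.31 in tip and 10.69 in mIMCD-3, with tip minus mesenchyme at 0.33 ± 0.12 (adjusted p = 0.142, and 0.0482 with the block). Their promoters are among those printed with both CHR and CCAAT letters.

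The other mitosis genes varied less between tissues. Aurka and Aurkb, spindle and chromosome passenger kinases, had gaps of 0.25 and 0.15, and Bub1 had 0.21. Top2a, the topoisomerase that untangles chromosomes, had a gap of 0.28, and Birc5 (survivin) had 0.04. The motor gene Cenpe had 0.19, with its lowest mean in tip.

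Tip against mesenchyme, for its part, placed both tip arrays above both mesenchyme arrays in 17 of 42 members and below them in 7, against 22.4% and 22.6% of all genes. Among the 3421 brighter genes 1066 (31.2%) lay above and 972 below in this way. By group the median difference was -0.03 for G1/S, 0.02 for replication and 0.11 for mitosis, against 0.015 for all genes. The mesenchyme arrays enter both this comparison and that of stalk.

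In mIMCD-3 the D-type cyclin genes were lower than in any tissue, and Cdk6, the inhibitors Cdkn1a and Cdkn2c and most replication and mitosis genes were higher. The array lay at least 1 log2 unit above the highest tissue array for 6 of 42 members and at least 1 unit below the lowest for 3, against 6.31% and 5.13% of all genes. Those above were Cdk6, Cdkn1a, Cdkn2c, Cdc45, Ccna2 and Kif11, and those below were Ccnd1, Ccnd2 and Ccnd3. These counts are by size, and no test was made of this single array.

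All 3 D-type cyclin genes were lower in mIMCD-3 than on any tissue array. Ccnd2 lay 6.68 log2 units below the lowest tissue array, a ratio of 102, and did so by at least 1 unit in all 7 probe sets; its value of 4.86 is under the array's median of 5.40, where RMA compresses differences and gives no detection call. Ccnd1 lay 2.11 units below (4.33-fold), with 2 of 3 probe sets past 1 unit, and Ccnd3 lay 1.26 units below (2.39-fold), with 1 of 3. The probe sets of Ccnd3 did not all have the same sign.

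The inhibitors Cdkn2c and Cdkn1a were higher. Cdkn2c lay 4.57 units above the highest tissue array (23.8-fold, 1 probe set) and Cdkn1a lay 1.30 units above it (2.46-fold). Cdk6 lay 2.22 units above it (4.67-fold) in the brightest probe set, and 2 of its 3 probe sets were past 1 unit.

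Most replication and mitosis genes were also higher in mIMCD-3 than in the tissues, by smaller amounts. Of the 30, 23 lay above every tissue array (11 of 14 replication and 12 of 16 mitosis genes), as did 30.7% of all genes and 39.8% of the brighter genes; 1 of the 30 lay below every tissue array, as did 34.4% of all genes. The median difference from the tissue mean was 0.55 for replication and 0.48 for mitosis genes, 0.15 for G1/S genes, -0.06 for all genes and 0.03 for the brighter genes. Rrm1 was the gene below: it measured 10.86 in mIMCD-3 and between 11.00 and 11.23 in the tissues, and its 3 probe sets did not have the same sign.

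The replication and mitosis genes past 1 unit were Cdc45, Ccna2 and Kif11. Cdc45, part of the active helicase, measured 8.14 and 8.03 in mesenchyme, 7.84 and 7.97 in stalk, 8.19 and 7.88 in tip and 9.67 in mIMCD-3, 1.48 units above the highest tissue array in 1 of its 2 probe sets. Ccna2, cyclin A2, measured 10.27 and 10.20 in mesenchyme, 10.19 and 10.18 in stalk, 10.40 and 10.27 in tip and 11.72 in mIMCD-3, 1.32 units above the highest tissue array, and 1.39 units above it in the other probe set. Kif11, the motor that separates spindle poles, measured 8.92 and 8.72 in mesenchyme, 8.82 and 8.64 in stalk, 9.08 and 8.59 in tip and 10.21 in mIMCD-3. Their tissue means lay within 0.18 of each other. Kif11, at 1.13 units above, lies just inside the size rule, and Cenpe, at 0.97, just outside it.

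**Figure D5:**
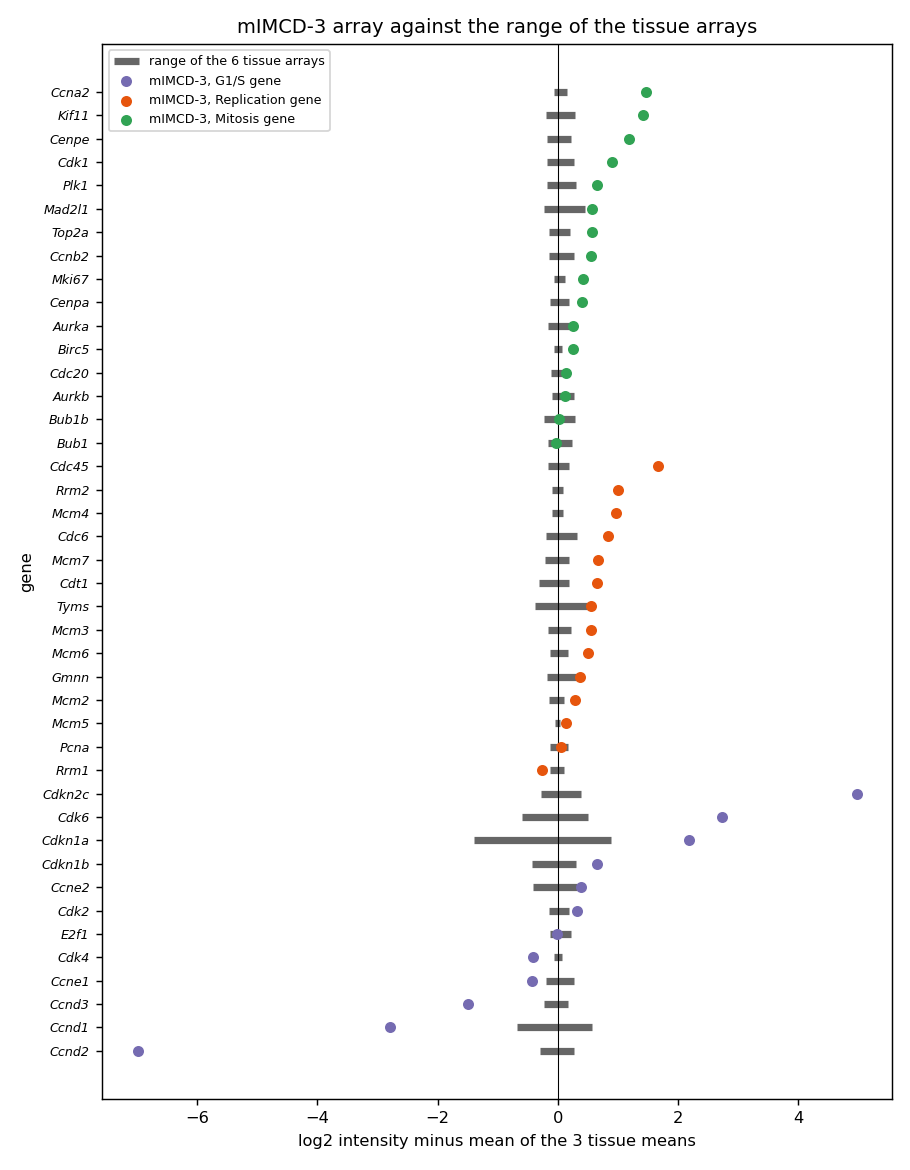
For each member, the log2 value in mIMCD-3 (point) and the range of the 6 tissue arrays (line), both minus the mean of the 3 tissue means. Ccnd1, Ccnd2 and Ccnd3 lie at least 1 unit below the range and Cdk6, Cdkn1a, Cdkn2c, Cdc45, Ccna2 and Kif11 at least 1 unit above it.

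Other genes of the cell cycle were taken from lists of pathway genes. Of 23 other G1/S regulators, 2 rose and 3 fell in tip against mesenchyme, where 7.38% and 8.37% of all genes did, and 1 rose and 1 fell in tip against stalk, where 2.86% and 6.97% of all genes did. Of 36 other replication genes 0 rose or fell in tip against either tissue. Under the replicate block 5 of them were higher in tip than stalk, where 8.92% of all genes were. Dut, which removes dUTP, fell by 0.63 in stalk against mesenchyme (limma adjusted p = 0.0435). Of 46 other mitosis genes 4 rose in tip against mesenchyme and 1 in tip against stalk, and 0 fell. The median tip minus stalk difference was 0.16 for the other replication genes (28 of 36 higher by sign) and 0.19 for the other mitosis genes (43 of 46), close to the medians of the members. Over all genes the median was 0.07 and 59.9% were higher by sign, and of the brighter genes 50.3% were higher.

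Cdkn1c, which encodes the inhibitor p57, was the G1/S regulator with the largest tissue difference in these lists. It measured 12.01 and 12.08 in mesenchyme, 11.78 and 11.72 in stalk, 10.50 and 10.29 in tip and 8.29 in mIMCD-3. The tip arrays were far below both other tissues. It fell by 1.65 ± 0.13 in tip against mesenchyme (limma adjusted p = 9.8e-05) and by 1.36 ± 0.13 in tip against stalk (adjusted p = 0.000619). Its direction between tip and stalk was opposite to that of the member Mad2l1.

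Mycn, a growth regulator of the early kidney, measured 9.77 and 9.64 in mesenchyme, 9.25 and 9.25 in stalk, 10.17 and 10.15 in tip and 5.57 in mIMCD-3. It rose by 0.91 ± 0.12 in tip against stalk (limma adjusted p = 0.00298) and by 0.45 ± 0.12 against mesenchyme (adjusted p = 0.0469). Its probe sets disagreed in mIMCD-3, where another one read 9.57 against 7.32 to 7.83 in the tissues. Myc measured 9.40 and 9.32 in mesenchyme, 8.91 and 8.92 in stalk, 8.98 and 8.74 in tip and 9.94 in mIMCD-3, and it fell by 0.50 ± 0.14 in tip against mesenchyme (adjusted p = 0.0455).

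Rb1, which encodes the Rb protein that D-type cyclin kinases inactivate, measured 7.83 and 7.60 in mesenchyme, 8.47 and 8.44 in stalk, 8.63 and 8.28 in tip and 8.60 in mIMCD-3. It rose by 0.74 ± 0.16 in both stalk (limma adjusted p = 0.0403) and tip (adjusted p = 0.017) against mesenchyme. Cdc25b, a phosphatase that activates Cdk1, measured 6.96 and 6.67 in mesenchyme, 8.33 and 8.22 in stalk, 8.65 and 8.43 in tip and 8.75 in mIMCD-3, and it rose by 1.46 ± 0.15 in stalk (adjusted p = 0.00124) and by 1.73 ± 0.15 in tip (adjusted p = 0.000172). Like Cdkn1a and Ccnd1, both genes separated the bud arrays from the mesenchyme arrays. Also called in tip against mesenchyme were Cit, a kinase of cytokinesis (0.74, limma adjusted p = 0.00514), Mad1l1, a partner of Mad2l1 (0.63, adjusted p = 0.0188), Ect2, a cytokinesis regulator (0.50, adjusted p = 0.0284), and Ccng2, a G-type cyclin (-0.65, adjusted p = 0.0197). The other 3 probe sets of Cit gave 0.03, 0.003 and 0.06 for tip minus mesenchyme, and the other probe set of Mad1l1 gave 0.03, so both calls rest on 1 probe set. Likewise the second, dim probe set of Rb1 gave -0.06.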

How the data were processed

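RNA of 6 microdissected tissue samples and 1 cell line sample was hybridised to Affymetrix mouse arrays; per the labels' protocols, total RNA was extracted with RNeasy and DNase and labelled as biotinylated cRNA. The authors deposited intensity values, on a linear scale from 5.08 to 19587, which they obtained with RMA over the arrays, per the submitters' processing notes; its software and version are not given in the sources used here. Such values are compressed for dim probe sets, and array number limits precision.

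Log2 was taken here. Of 45101 probe sets 34945 list exactly 1 gene, and the brightest was kept for each of 18193 genes. Symbols were updated through Entrez identifiers, of which 99.4% were found in RefSeq. Tissue contrasts came from limma 3.58.1, run in R 4.3.3 (lmFit and eBayes, 3 residual degrees of freedom, no low-value filter, two-sided, Benjamini-Hochberg over all genes). The scripts were tested on simulated data. The labels number the replicates without saying that they are paired; replicate differences correlated at 0.39 (mesenchyme and stalk), 0.57 (mesenchyme and tip) and 0.43 (stalk and tip), so the numbers were treated as pairs in the fit with the block. mIMCD-3 was described by size. Python 3.11.15, pandas 2.3.3 and matplotlib 3.10.9 were used for summaries and figures.

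The members, gene lists, promoter motifs and tests were chosen with earlier results of these data known. Named with every array were members called in any contrast with or without the block, members past the size rule in mIMCD-3, and the 3 members of each role group with the largest gap between tissue means; further arrays are given for Mcm5, Mcm7, Mki67, Cdt1 and Rrm1, chosen after their values were seen. Of other pathway lists up to 4 called genes per contrast were eligible, plus Cdkn1c, Mycn and Myc. Alternatives were the block, each tissue array left out, the mean of probe sets, the dimmest 40% of genes left out, trend and robust options in limma, a fit of only the groups compared, and centring each array on its median. Protein sequences were not analysed here.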

Additional observations from a re-analysis of the deposited data

Results flagged for a closer look

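For 5 genes the difference from mesenchyme itself differed between tip and stalk, tested as the limma contrast of tip minus stalk. Among the members these were Cdk6 (-0.85, limma adjusted p = 0.0218) and Mad2l1 (0.53, adjusted p = 0.0461). Among the other cell cycle genes these were Cdkn1c (-1.36, adjusted p = 0.000619), Mycn (0.91, adjusted p = 0.00298) and Cit (0.53, adjusted p = 0.037). Tip and stalk were each set against the same mesenchyme arrays. The value of Cit is that of the brightest of its 4 probe sets, which measured 7.55 and 7.51 in stalk and 8.11 and 8.005 in tip; the other 3 gave -0.07, 0.32 and 0.23 for tip minus stalk.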

How the results depend on the processing

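Counts of members called depended on the settings of limma. With the replicate block, tip against mesenchyme gave 7 higher and 3 lower, stalk against mesenchyme 4 higher, tip against stalk 7 higher and 2 lower, and bud against mesenchyme 1 lower. With trend and robust options these were 10 higher and 3 lower, 4 higher and 1 lower, 12 higher and 3 lower, and 5 higher and 3 lower. With the dimmest 40% of genes left out, which removed 1 member, tip against mesenchyme gave 6 higher and 1 lower, tip against stalk 3 higher and bud against mesenchyme 1 lower. Of all genes kept there, 1314 rose and 1444 fell in tip against mesenchyme, and 642 rose in tip against stalk. Fitting only the groups compared gave 4 higher in stalk against mesenchyme and 0 in tip against stalk, and centring the arrays gave 0 higher in tip against stalk. For all genes the first gave 922 higher in stalk against mesenchyme and 471 in tip against stalk. Centring gave 523 of all genes higher in tip against stalk. Counts of members called, and of all genes called, also moved when 1 array was left out. The 45 pairs of a member and a contrast called in at least 1 setting, with all other pairs left out, had 530 alternative values. Of these, 437 kept direction and side of the threshold, 68 passed it newly, 25 no longer passed it and 0 reversed. The cause of these shifts was not tested. The sign counts without single arrays were chosen after seeing the data; with the mean of probe sets 27 of 30 replication and mitosis genes were higher in tip than stalk. Of 31 members with several probe sets, signs differed within the gene in 9 for stalk against mesenchyme, 13 for tip against mesenchyme, 7 for tip against stalk and 10 for mIMCD-3. With 1 array left out a group holds 1 array, assumed to vary like the others.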

Other observations

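Further genes of the cell cycle lists were outside the tissue range in mIMCD-3. By at least 1 log2 unit, 3 of 23 other G1/S regulators lay above it and 3 below, against 6.31% and 5.13% of all genes. So did 2 of 36 other replication genes and 4 of 46 other mitosis genes above it, and 0 of either list below. Cdkn2a, which encodes the inhibitor p16 and the protein Arf, measured 4.06 and 4.16 in mesenchyme, 3.89 and 3.91 in stalk, 3.96 and 3.88 in tip and 9.50 in mIMCD-3. Its neighbour in function Cdkn2b (p15) measured between 3.77 and 4.60 in the tissues and 9.31 in mIMCD-3. Both tissue levels lie under the array medians, where RMA compresses differences. Together with the member Cdkn2c, 3 inhibitors of Cdk4 and Cdk6 read at least 1 unit higher in this array than in any tissue array. Cdkn2d, another such inhibitor, read 9.04, which was 0.09 above the highest tissue array. E2f6, a repressor of the E2F family, read 8.09 against 9.58 to 9.80 in the tissues, although its dimmer probe set lay within the tissue range. These are values of 1 array.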
